A study of Mus musculus with 13 samples.

Results

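The Wnt ligands, their receptors and the secreted or membrane-bound inhibitors of the pathway were followed as 1 family of genes in maps of 5-hydroxymethylcytosine (5hmC) from mouse knee cartilage. TET enzymes make 5hmC by oxidising 5-methylcytosine. The members were chosen by name among the genes that the deposited tables list as nearest to a region. They are the Wnt and Rspo genes (ligands), Fzd genes, Lrp5, Lrp6, Ror1, Ror2, Ryk and Lgr4 to Lgr6 (receptors), and Sfrp and Dkk genes, Frzb, Wif1, Sost, Znrf3 and Rnf43 (inhibitors). Of 54 mouse genes that fit, 53 had at least 1 region: 22 of 23 ligands, 18 of 18 receptors and 13 of 13 inhibitors. Wnt16 had none. These genes held 456 of the 181833 regions in the 3 tables, and 34 of them had a region in every table.

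The 3 groups used here were knee cartilage of B6;129S4 male mice, a mixed strain, 6 weeks after the operation. They are MUT DMM (genotype labelled TET-/-, medial meniscus operated), WT DMM (TET1+/+, same operation) and WT sham (TET1+/+, knee opened only). DMM stands for destabilisation of the medial meniscus, which leads to osteoarthritis in mice; the protocol says that the meniscus was removed. The mice were 3 to 4 months old by the design text but 4 to 6 months old by the protocol, and the part of Tet1 that the mutants lack is not stated. Controls came from the opposite leg, per the protocol, so some knees may share an animal. MUT sham knees and the control library without glucosylation are not analysed here. Thus genotype without surgery was not compared and no background was subtracted.

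Wnt proteins are secreted lipid-modified signals. They bind Frizzled receptors together with the co-receptors LRP5 and LRP6, which stabilises beta-catenin, or they act through ROR and RYK receptors without beta-catenin. R-spondins bind LGR receptors and remove the ubiquitin ligases ZNRF3 and RNF43, which otherwise clear Frizzled from the cell surface. Secreted SFRPs, FRZB and WIF1 hold Wnt proteins away from their receptors, and DKK proteins and sclerostin occupy LRP5 and LRP6. In joint cartilage the pathway is kept at a low level, and mice without Frzb are known to lose more cartilage when arthritis is induced.

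The method, reduced representation hydroxymethylation profiling, reads 5hmC at CCGG sites, where the enzyme MspI cuts. Glucose placed on 5hmC blocks a repeated digest, so fragments whose ends carry 5hmC survive. In whole pulverised cartilage, a change of the mark within cells and a changed mix of cells cannot be told apart. A level below is a normalized read count in a region of some 200 to 400 bases, and levels can be compared within a table and not between tables or between genes. Start sites of 36 of the 54 genes were matched in RefSeq (build GRCm38.p6, the coordinates of mm10), as 40 windows that run from 250 bases before to 50 bases after a start. At least 1 CCGG lay in 87.5% of these 40 windows and in 52.8% of all 32851 windows of the same length. By class the share was 90% for ligands, 90.9% for receptors and 77.8% for inhibitors. Regions called different overlapped the window of 9 members, and 6 of those windows are printed here. Bases are 5′ to 3′ on the gene's strand, with CCGG in capitals; CCGG reads the same on both strands.
Wnt2b, chr3:104961660-104961959, minus strand: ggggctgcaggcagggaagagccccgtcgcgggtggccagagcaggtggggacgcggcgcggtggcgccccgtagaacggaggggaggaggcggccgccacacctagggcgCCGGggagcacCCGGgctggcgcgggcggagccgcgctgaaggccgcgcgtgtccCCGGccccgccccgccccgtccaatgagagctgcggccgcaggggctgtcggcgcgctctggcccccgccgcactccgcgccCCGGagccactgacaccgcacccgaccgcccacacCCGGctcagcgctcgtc
Wnt6, chr1:74771642-74771941, plus strand: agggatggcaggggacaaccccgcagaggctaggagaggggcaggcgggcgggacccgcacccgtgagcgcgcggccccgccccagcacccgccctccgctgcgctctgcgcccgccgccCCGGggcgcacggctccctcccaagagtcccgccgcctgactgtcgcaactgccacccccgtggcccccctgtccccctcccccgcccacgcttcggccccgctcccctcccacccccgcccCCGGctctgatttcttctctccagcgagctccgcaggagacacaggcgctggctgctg
Lgr4, chr2:109917397-109917696, plus strand: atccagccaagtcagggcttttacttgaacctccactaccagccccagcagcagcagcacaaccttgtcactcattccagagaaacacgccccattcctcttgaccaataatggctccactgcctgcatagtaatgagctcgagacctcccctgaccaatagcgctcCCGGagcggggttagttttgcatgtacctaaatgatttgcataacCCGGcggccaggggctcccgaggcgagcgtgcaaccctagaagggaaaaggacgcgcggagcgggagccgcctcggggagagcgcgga
Wif1, chr10:121033754-121034053, plus strand: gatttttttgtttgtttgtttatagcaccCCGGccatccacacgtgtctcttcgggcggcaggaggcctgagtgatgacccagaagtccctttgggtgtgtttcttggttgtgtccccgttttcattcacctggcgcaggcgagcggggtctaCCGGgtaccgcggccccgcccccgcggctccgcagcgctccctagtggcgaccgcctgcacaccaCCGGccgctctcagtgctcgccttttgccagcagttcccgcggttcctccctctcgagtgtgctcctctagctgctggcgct
Fzd1, chr5:4758167-4758466, minus strand: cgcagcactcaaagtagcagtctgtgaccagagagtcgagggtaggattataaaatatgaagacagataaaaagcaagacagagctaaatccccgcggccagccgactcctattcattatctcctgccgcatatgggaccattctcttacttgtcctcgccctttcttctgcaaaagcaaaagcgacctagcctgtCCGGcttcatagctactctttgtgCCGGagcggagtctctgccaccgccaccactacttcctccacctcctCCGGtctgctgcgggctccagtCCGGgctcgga
Sost, chr11:101966966-101967265, minus strand: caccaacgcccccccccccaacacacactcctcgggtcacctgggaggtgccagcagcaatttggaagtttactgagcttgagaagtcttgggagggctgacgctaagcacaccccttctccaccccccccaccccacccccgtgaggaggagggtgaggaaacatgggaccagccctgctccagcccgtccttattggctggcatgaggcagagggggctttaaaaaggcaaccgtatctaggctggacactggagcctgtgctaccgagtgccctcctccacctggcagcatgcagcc
The Wnt2b window holds 5 CCGG, and the region called in MUT DMM against WT DMM covers all of them. Both CCGG of the Wnt6 window lie in its region, as do 1 of 2 for Lgr4 and 2 of 3 for Wif1. For Fzd1, 2 of 4 lie in the region called in WT DMM against WT sham. The Sost window has no CCGG, and its region shares 75 bases with it and runs on into the gene.

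A region was called when its adjusted p in the authors' deposited table was below 0.05. The tables list only regions whose best window had already reached a p of 0.0001, so nearly every listed region is called and the direction carries the information. WT DMM and WT sham had 3 libraries each. MUT DMM had 2 distinct libraries, because a pair of its 3 entries was identical and was counted as 1 here. The deposited MUT DMM means are those of all 3 entries. The authors' adjusted p, and so each call, in the MUT DMM comparisons may therefore treat the repeated entry as a separate library. Depth limited every comparison. The first-listed WT DMM library had 4726 reads in the table set against WT sham, where 1 of its reads equalled 15.7 normalized counts, and 52972 in the table set against MUT DMM, where 1 read equalled 9.56. The other libraries held between 302082 and 7860851 reads in the listed regions of the tables. The shallower MUT DMM library moved in steps of 3.55 normalized counts against WT DMM and 9.45 against WT sham, so many of its low values are 0 or 1 read.

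In WT DMM knees against WT sham knees, 5hmC at Wnt family regions was mostly higher, though not among the regions with a mean of at least 10 normalized counts, where 5 were higher and 16 lower. All 102 listed regions, near 40 genes, were called, against 99.7% of all regions in that table. Of these, 86 (84.3%) were higher and 16 lower in WT DMM; over the whole table the higher share was 93.4% and the lower 6.55%. Ligands had 24 regions higher and 6 lower, receptors 36 and 8, inhibitors 26 and 2. Higher regions lay near 37 genes and lower ones near 12, with 9 genes in both counts. Over the whole table these counts were 15525, 2437 and 1596 of 16400 genes. The median level of the higher regions was 7.65 normalized counts in WT DMM and 2.76 in WT sham, and that of the lower regions 27.1 in WT DMM and 48.1 in WT sham.

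**Figure D1:**
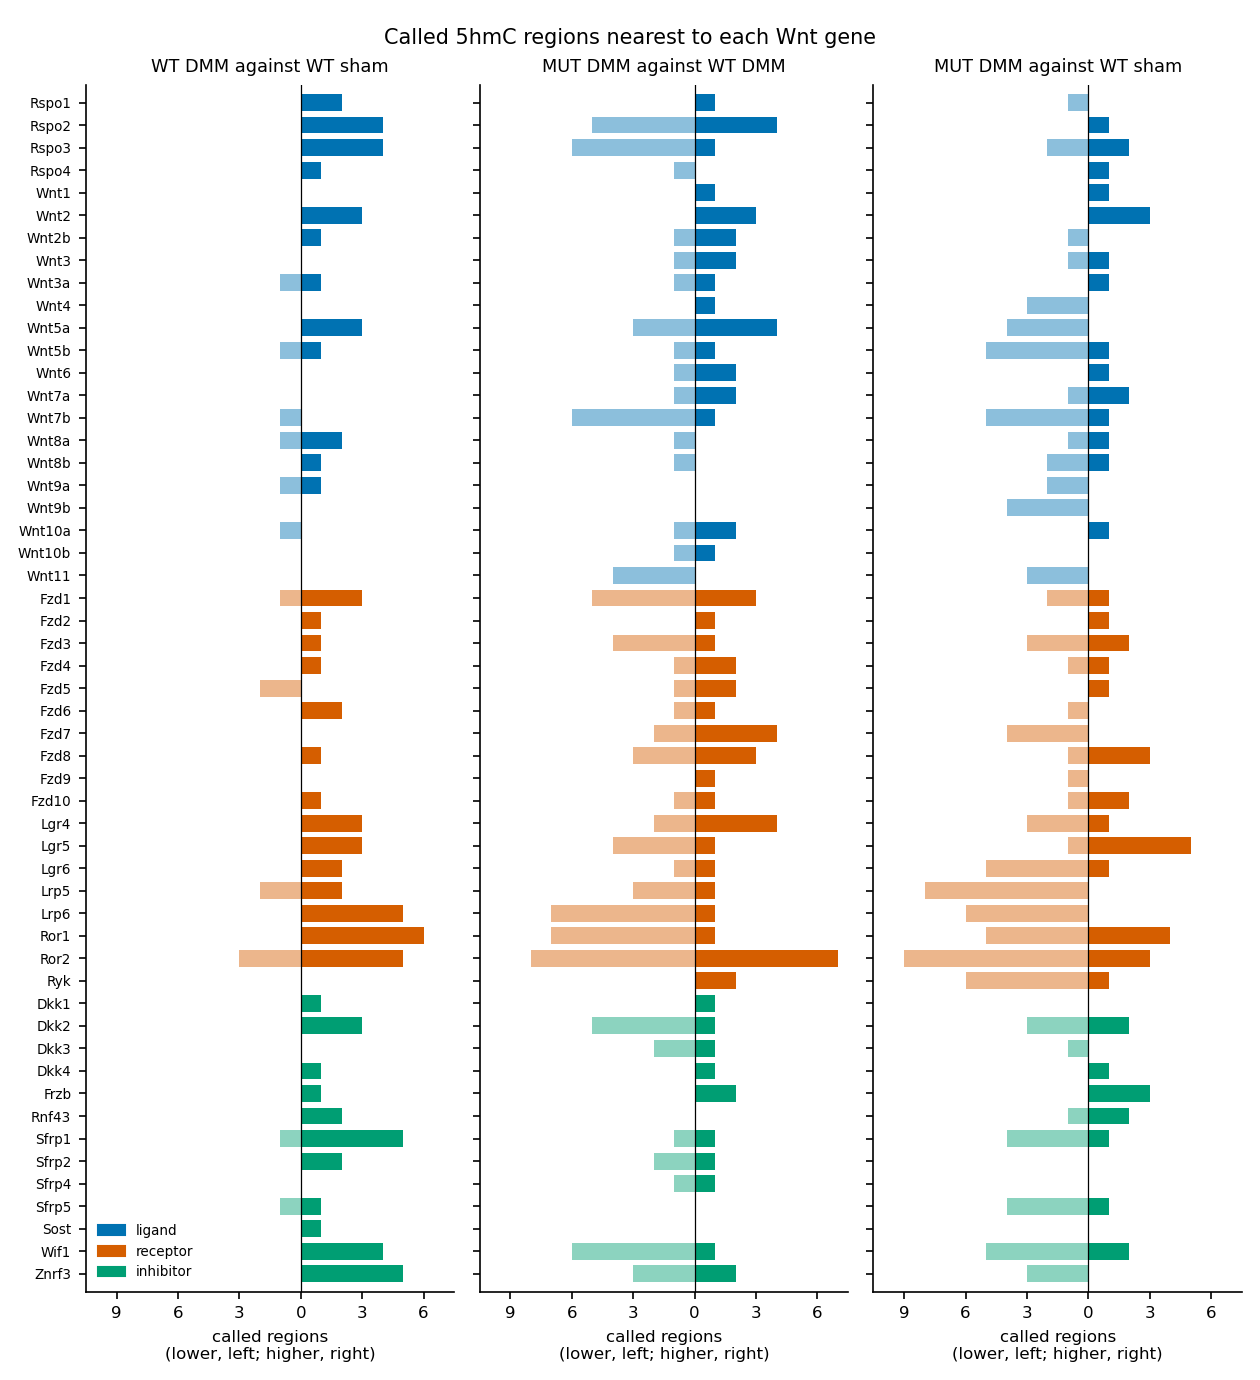
Called regions per gene in each comparison, by class; bars to the right (dark) count regions higher and bars to the left (pale) regions lower in the group named first. Most bars point right in WT DMM against WT sham (86 higher, 16 lower) and left in MUT DMM against WT sham (56 higher, 113 lower), with 78 higher and 105 lower in MUT DMM against WT DMM.

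The groups overlapped at nearly all of these regions. Every WT DMM library lay beyond every WT sham library at 4 of 102 regions (3.92%), against 2.71% of the table: 2 of 86 higher (1.07% in the table) and 2 of 16 lower (26.2% in the table). The near-empty WT DMM library had no read in 83 of the 86 higher and 14 of the 16 lower regions. Without it, 77 of the 86 higher regions (89.5%, against 85.3% in the table) and 3 of the 16 lower (18.8%, against 31% in the table) did not overlap. With all libraries, limma on log2(normalized count + 1) called 0 of the 102 regions after Benjamini-Hochberg adjustment, and 0 of all 43378 regions of the comparison. At an unadjusted p below 0.05 it called 1 of the 102, against 335 of the 43378 (0.772%). Without the near-empty library limma called 74 higher (72.5%, against 73.3% of the table) and 1 lower (0.98%, against 1.01% of the table). The nearest gene can be far away: with genes taken from coordinates within 5 kb, 56 regions were higher and 14 lower. That was 80% higher, against 92.7% of the called regions within 5 kb of any gene. At a mean level of at least 10 normalized counts the majority turned, with 5 regions higher and 16 lower (23.8% higher, against 64.1% of the called regions of the table at that level).

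Among ligands, the 1 higher region without overlap between the groups was near Rspo2, an R-spondin needed for mouse limb growth. This region (chr15:42870001-42870200), outside the gene (chr15:43020788-43171594), had 15.7, 29.4 and 27.1 normalized counts in WT DMM, against 1.28, 7.87 and 1.37 in WT sham. The 15.7 is 1 read of the near-empty library. All 3 WT DMM libraries were above all 3 sham libraries, a 6.85-fold higher mean (5.20-fold to 18.1-fold with 1 library left out, reaching 18.1-fold without the second-listed sham library), with an adjusted p of 0.000266 in the authors' deposited table and an unadjusted limma p of 0.0381 (adjusted limma p = 1). Rspo3, another R-spondin, had 0, 12.01 and 17.7 in WT DMM against 2.56, 5.01 and 2.05 in WT sham at chr10:29557341-29557580, outside the gene (adjusted p = 0.000266 in the authors' deposited table). The 0 came from the near-empty library, and the other WT DMM libraries were above all sham libraries. The same held for Wnt2, a beta-catenin activating ligand, with 0, 14.7 and 29.2 in WT DMM against 6.41, 7.15 and 2.56 in WT sham at a region beyond the gene's end (chr6:17982701-17983140). Wnt5a, the main ligand of the ROR receptors, had 0, 9.34 and 16.7 in WT DMM against 2.24, 2.86 and 3.08 in WT sham at chr14:28614441-28614780. That region lay outside the gene (chr14:28504543-28527448).

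The 2 lower ligand regions without overlap were at Wnt5b, a ligand of prehypertrophic chondrocytes in the mouse growth plate, and at Wnt8a, an early embryonic ligand. The Wnt5b region, centred 387 bases after a start site (chr6:119543841-119544080), had 31.4, 29.4 and 16.7 normalized counts in WT DMM, against 36.8, 53.7 and 88.9 in WT sham. Here all WT DMM libraries lay below all sham libraries, and the adjusted p in the authors' deposited table was 0.00181. The 31.4 is 2 reads of the near-empty library, and it lay below the lowest sham value by less than the worth of 1 of its reads. Wnt8a had 0, 86.7 and 68.7 in WT DMM against 87.1, 88.7 and 87.8 in WT sham at chr18:34547381-34547680. The groups were apart, but the gap between the nearest libraries was smaller than the range of the sham libraries.

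Among receptors, the tyrosine kinase receptor Ror2, whose loss shortens limbs in mice, had the most regions, 5 higher and 3 lower. Its region chr13:53294801-53295100, centred at position -8826 from the start site, had 15.7, 29.4 and 35.4 normalized counts in WT DMM against 15.4, 15.0 and 10.9 in WT sham. Every WT DMM library was higher, 1 of them by a margin smaller than the worth of a single read (adjusted p = 0.000145 in the authors' deposited table). The related Ror1 had 6 regions higher and 0 lower, and the co-receptor Lrp6 had 5 and 0, where 93.4% of all called regions were higher. Lrp6 at chr6:134508821-134509160 had 0, 6.67 and 17.7 in WT DMM against 1.28, 2.86 and 1.54 in WT sham. Lrp5, a co-receptor known for its effect on bone mass, had 0, 18.7 and 9.37 against 1.6, 3.58 and 2.39 at chr19:3593461-3593840. In each of these the WT DMM libraries other than the near-empty one were above every sham library. The Frizzled receptor gene Fzd1 was lower at its start site, with 0, 53.4 and 15.6 in WT DMM against 40.7, 40.8 and 42.4 in WT sham (adjusted p = 0.00182 in the authors' deposited table). The WT DMM libraries lay on both sides of the sham values there.

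Inhibitor regions were higher in 26 of 28 cases (92.9%, against 93.4% of the called regions of the table). Rnf43, a ligase that removes Frizzled from the cell surface, had 0, 13.3 and 12.5 normalized counts in WT DMM against 2.24, 2.15 and 2.05 in WT sham within the gene (chr11:87672421-87672640, adjusted p = 0.000272 in the authors' deposited table). Its partner Znrf3 had 5 regions higher and 0 lower, with 0, 9.34 and 14.6 against 2.56, 2.86 and 3.08 at chr11:5275341-5275560. Dkk2, which binds LRP5 and LRP6, had 0, 10.7 and 17.7 against 1.92, 4.29 and 2.05 within the gene (chr3:132146381-132146660). Sfrp1, a secreted Wnt binder, had 5 regions higher and 1 lower, and 0, 9.34 and 19.8 against 3.2, 5.01 and 2.05 outside the gene (chr8:23500181-23500560). Sost, which encodes sclerostin and is best known from osteocytes, had 0, 10.7 and 9.37 in WT DMM against 1.28, 3.58 and 1.71 in WT sham at its start site (adjusted p = 0.00132 in the authors' deposited table). At each of these 5 genes the WT DMM libraries other than the near-empty one exceeded all sham libraries. Wif1, a secreted Wnt binder, had 0, 29.4 and 55.2 against 15.7, 18.6 and 11.1 beyond the gene's end (chr10:121139381-121139740), and without the third-listed WT DMM library its mean turned, to 14.7 in WT DMM against 15.1 in WT sham.

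**Figure D2:**
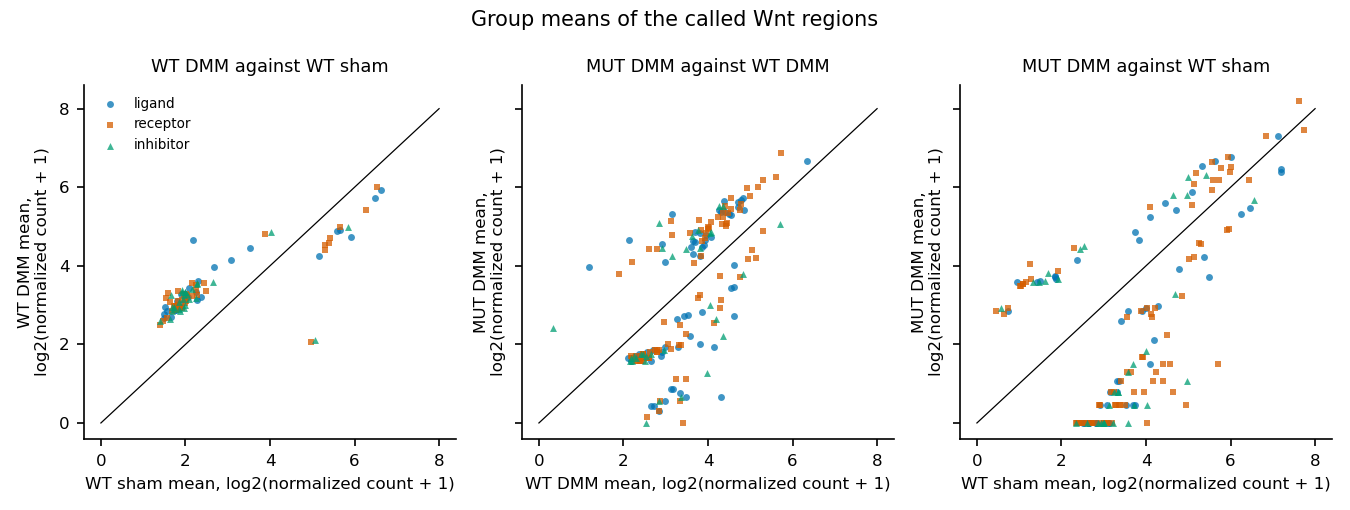
Mean normalized count of each called region in the group named first against the group named after it, on the log2(normalized count + 1) scale, coloured by class; the diagonal marks equal means. In WT DMM against WT sham most points above the diagonal are low in both groups (medians 7.65 in WT DMM and 2.76 in WT sham), and in MUT DMM against WT sham a row of points lies at 0 on the MUT DMM axis (median of the lower regions 0.735).

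In MUT DMM knees against WT DMM knees, 105 Wnt family regions were lower and 78 higher, but among those with a mean of at least 10 normalized counts 74 were higher and 23 lower. Of 185 listed regions near 48 genes, 183 were called, against 98.9% of the table, and 78 (42.6%) of those were higher in MUT DMM. Among all called regions of the comparison 34.6% were higher and 65.4% lower. Ligands had 29 higher and 35 lower, receptors 37 and 50, and inhibitors 12 and 20. Genes mostly went both ways: 44 had a higher region, 38 a lower one and 34 had both. The median level of higher regions was 30.5 normalized counts in MUT DMM against 15.0 in WT DMM. For lower regions it was 2.36 in MUT DMM against 6.22 in WT DMM. The regions not called were at Wnt2b (chr3:104960501; adjusted p = 0.914 in the authors' deposited table) and Fzd7 (chr1:59482841; adjusted p = 0.0567 there); both were named after their values were seen.

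Every MUT DMM library lay beyond every WT DMM library at 79 of the 183 called regions (43.2%, against 41.9% in the table). That was 47 of 78 higher regions (67% in the table) and 32 of 105 lower (28.6% in the table). The near-empty WT DMM library had no read in 58 of the 78 higher and 64 of the 105 lower regions. Its values of 9.56, 19.1 and 38.2 in this comparison are 1, 2 and 4 reads. Without that library, 51 higher (65.4%, against 70.5% in the table) and 84 lower regions (80%, against 81.7% in the table) did not overlap. The shallower MUT DMM library had a median of 1 read over the 105 lower regions and was at 0 in 23 of them. limma called 0 of the 185 regions after adjustment, and 0 of all 65969 regions of the comparison. At an unadjusted p below 0.05 it called 13 of the 185, against 4938 of the 65969 (7.49%). With genes taken from coordinates within 5 kb, 66 regions were higher and 67 lower. That was 49.6% higher, against 35.1% of the called regions within 5 kb of any gene. The majority turned at a mean level of at least 10 normalized counts, where 76.3% of the called Wnt regions were higher, against 64.3% of those of the table.

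Of 51 higher regions whose gene has a known start site, 27 (52.9%) were centred within 2 kb of it, against 33.1% of the higher regions of the whole table, and the median distance was 1.53 kb against 14.1 kb. Among regions with a mean of at least 10 normalized counts the shares were 50% and 34%. The difference from the table was not tested. Lower regions were rarely so close, with 2 of 54 (3.7%, against 7.75% in the table) within 2 kb and a median distance of 44.2 kb. The level moves with this split, since 94.9% of the higher but 21.9% of the lower Wnt regions reached 10 normalized counts (91.4% and 26.8% in the table), and its part in the result was not tested. In WT DMM against WT sham the order was the other way round, with 2 of 47 higher (4.26%, against 4.93% in the table) and 4 of 10 lower regions (40%, against 17.2% in the table) within 2 kb. Those comparisons share the WT DMM libraries, so they are not independent. In MUT DMM against WT sham, 7 of 37 higher regions (18.9%, against 14.4% in the table) were within 2 kb. Of the lower regions there, 7 of 73 were (9.59%, against 8.82% in the table).

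**Figure D3:**
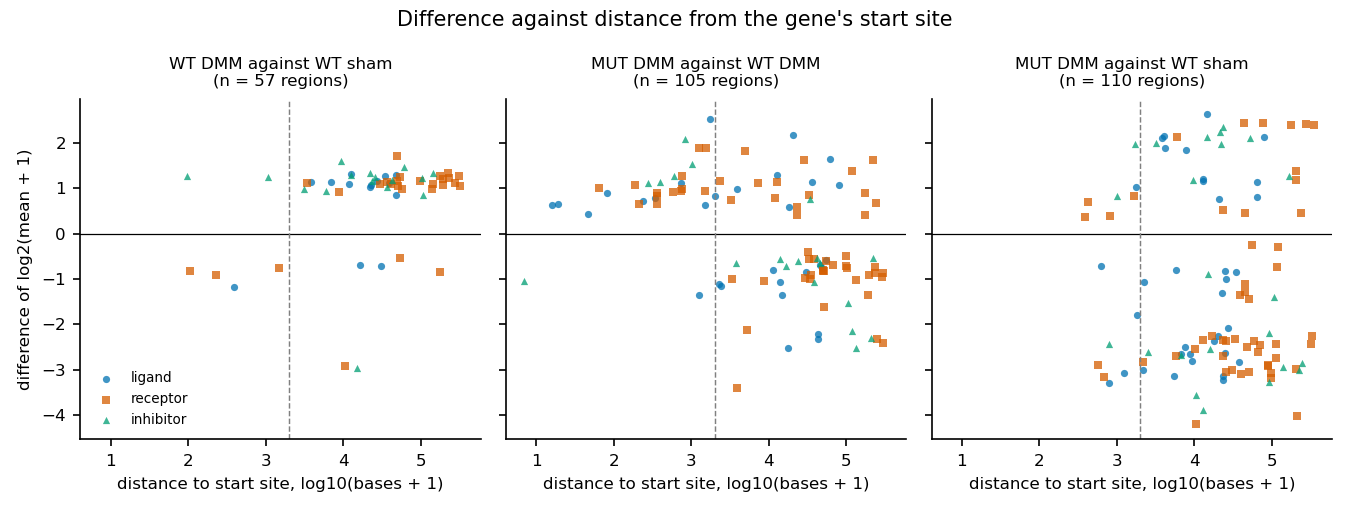
Difference of log2(mean normalized count + 1) between the group named first and the group named after it, against the distance from a region's centre to its gene's start site (log10 of bases + 1), for called regions of members with a known start site; the dashed line marks 2 kb. In MUT DMM against WT DMM 27 of 51 higher and 2 of 54 lower regions lie left of the line.

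The 27 regions belonged to 21 genes: 9 regions of 7 ligand genes, 13 of 9 receptor genes and 5 of 5 inhibitor genes. They were singled out after their values were seen. All 27 kept their direction without the near-empty WT DMM library. MUT DMM libraries were above every WT DMM library at 15 of the 27 (3 ligand, 8 receptor and 4 inhibitor regions), or at 17 without that library. Among all higher regions of the comparison the shares were 67%, and 70.5% without that library, so the 27 were not more often apart than the rest.

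**Figure D4:**
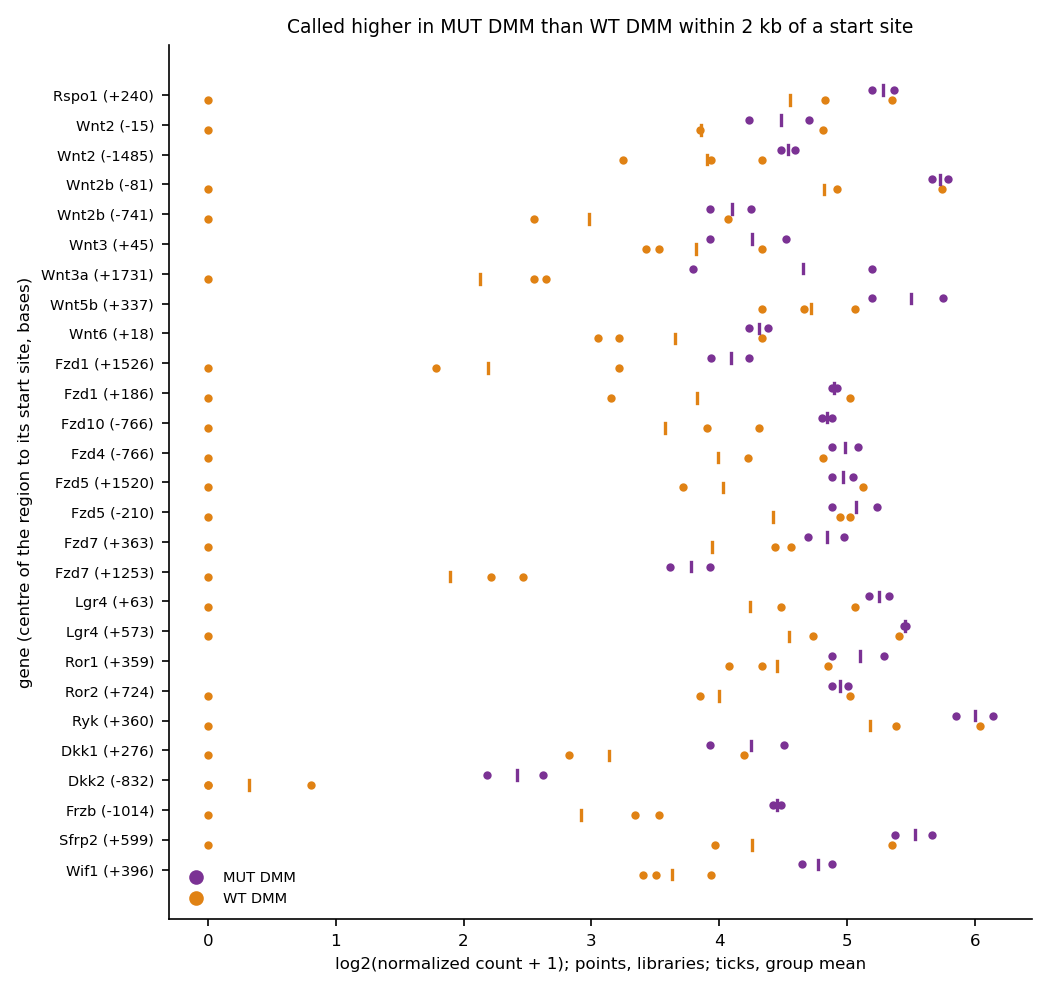
Level per library (dots) and of the group mean (ticks), as log2(normalized count + 1), at the 27 regions within 2 kb of a start site that were higher in MUT DMM, with MUT DMM drawn above WT DMM for each region. The leftmost WT DMM dot is often the near-empty library, at 0. At 15 of the 27 regions all MUT DMM dots lie to the right of all WT DMM dots, against 67% of all higher regions of the comparison.

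Among ligands, Wnt2b, a beta-catenin activating ligand, had 54.3 and 49.8 normalized counts in the 2 MUT DMM libraries against 0, 52.7 and 29.2 in WT DMM over the window printed above (adjusted p = 0.000253 in the authors' deposited table). A WT DMM library lay between the MUT DMM values. At the Wnt6 start site the MUT DMM levels were 19.9 and 17.8, against 19.1, 8.27 and 7.31 in WT DMM (adjusted p = 0.000208 in the authors' deposited table), where the 19.1 is 2 reads of the near-empty library. Wnt2 had 25.03 and 17.8 against 0, 27.1 and 13.4, and Wnt3, needed for limb formation in mice, had 22.0 and 14.2 against 19.1, 10.5 and 9.74, each with overlapping groups. The ligand gain of smallest p was beyond the end of Wnt7a, a dorsal limb signal in mice (chr6:91331941-91332320), with 38.6 and 42.7 in MUT DMM against 19.1, 17.3 and 20.1 in WT DMM. The groups were apart, with a 2.16-fold higher mean and an adjusted p of 2.09e-05 in the authors' deposited table (limma log2 difference 1.07 ± 0.85 SE, adjusted p = 0.729).

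Ligand losses included several R-spondin regions, though Rspo2 had 5 regions lower and 4 higher, and Rspo1 had 0 lower and 1 higher. At the Rspo2 region described above, MUT DMM had 1.17 and 0 normalized counts, against 19.1, 18.8 and 18.3 in WT DMM (adjusted p = 3.63e-05 in the authors' deposited table; limma log2 difference -3.74 ± 0.89 SE, unadjusted p = 0.00477, adjusted p = 0.598). No MUT DMM value came near a WT DMM value. Rspo3 had 6 regions lower and 1 higher, with 0.94 and 3.55 in MUT DMM against 0, 8.27 and 10.96 in WT DMM at chr10:29557201-29557580, outside the gene. Its region of smallest p (chr10:29582141-29582400) had 0.47 and 3.55 against 0, 3.76 and 12.2, and without the third-listed WT DMM library its mean was 2.01 in MUT DMM against 1.88 in WT DMM. Rspo4 had 5.62 and 0 against 19.1, 11.3 and 19.5 beyond the gene's end, with the groups apart. Wnt7b, a ligand expressed in lung and bone, had 6 regions lower and 1 higher, with 0.94 and 0 against 9.56, 3.76 and 7.31 within the gene. Wnt11, which acts mainly without beta-catenin, had 4 lower and 0 higher, and Wnt2 0 lower and 3 higher.

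Receptor gains near start sites included Lgr4, an R-spondin receptor, with 35.1 and 39.1 normalized counts in MUT DMM against 0, 32.3 and 21.3 in WT DMM (adjusted p = 0.00162 in the authors' deposited table). The groups did not overlap there. At the Fzd5 start site the levels were 36.7 and 28.4 in MUT DMM against 0, 31.6 and 29.8 in WT DMM, with overlap. Lgr5, the R-spondin receptor known from intestinal stem cells, had 30.0 and 39.1 against 0, 9.78 and 13.4 within the gene (chr10:115535781-115536100), a 4.47-fold higher mean with the groups apart, which became 2.98-fold without the first-listed and 7.06-fold without the third-listed WT DMM library (adjusted p = 1.36e-05 in the authors' deposited table; limma adjusted p = 0.605). Fzd8 had 43.8 and 49.8 against 38.2, 16.6 and 24.96 outside the gene (chr18:9117661-9117920), also apart. Ror2 had 7 higher and 8 lower regions. Some 4 kb apart upstream of its start, the region chr13:53290961-53291240 was higher, with 19.7 and 21.3 in MUT DMM against 0, 9.78 and 5.48 in WT DMM, and chr13:53294701-53295100 was lower, with 10.1 and 14.2 against 19.1, 28.6 and 30.4 (adjusted p = 1.26e-05 in the authors' deposited table). In both cases the groups were apart.

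Lrp6 and Ror1 each had 7 regions lower and 1 higher, where 65.4% of all called regions were lower. Lrp6 had 0.47 and 0 normalized counts in MUT DMM against 9.56, 1.5 and 7.31 in WT DMM within the gene (chr6:134460301-134460580), and Ror1 had 13.3 and 21.3 against 0, 42.1 and 60.9 (chr4:100382561-100382960). The groups were apart at the Lrp6 region, but at few reads, with 2 and 0 in MUT DMM and 1, 2 and 12 in WT DMM. At the Ror1 region the near-empty library lay below the MUT DMM values. Lrp5, for which no start site was matched, was lower at a region outside the gene, past its highest coordinate (chr19:3686721-3687100), with 6.08 and 7.11 in MUT DMM against 19.1, 21.8 and 14.6 in WT DMM, again apart (adjusted p = 3.98e-05 in the authors' deposited table).

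Among inhibitors, Wif1 moved in opposite directions at neighbouring regions. Over its start site the level was lower, at 11.2 and 14.2 normalized counts in MUT DMM against 47.8, 16.6 and 17.7 in WT DMM (adjusted p = 0.000873 in the authors' deposited table). A region centred 396 bases into the gene (chr10:121034261-121034540) was higher, at 24.1 and 28.4 against 9.56, 14.3 and 10.4. The groups were apart at both, and the 47.8 is 5 reads of the near-empty library. Beyond the gene Wif1 was lower, with 7.25 and 0 against 19.1, 15.8 and 23.7 at chr10:121150401-121150680, and in all it had 6 regions lower and 1 higher. Sfrp2, a secreted Wnt binder, was higher 599 bases into the gene, with 40.5 and 49.8 in MUT DMM against 0, 39.9 and 14.6 in WT DMM (adjusted p = 0.000229 in the authors' deposited table). Both MUT DMM libraries exceeded all WT DMM libraries, 1 of them by less than the worth of 1 read of the nearest WT DMM library. Frzb, named after its values were seen, had a mean of 20.8 in MUT DMM and 6.55 in WT DMM at a region centred at position -1014 from its start. Sfrp1 was lower outside the gene (chr8:23370041-23370620), with 2.81 and 0 against 19.1, 9.03 and 16.4. Dkk3 was lower at a level of few reads, also outside the gene, with 0.47 and 3.55 against 0, 7.52 and 6.7.

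In MUT DMM knees against WT sham knees, Wnt family regions were mostly lower. All 169 listed regions near 48 genes were called, against 99.3% of the table, and 56 (33.1%) were higher and 113 lower in MUT DMM; the whole table had 43.5% higher and 56.5% lower. Ligands had 18 higher and 35 lower, receptors 26 and 57, and inhibitors 12 and 21. Lower regions held few reads in MUT DMM, with a median of 0.735 normalized counts against 10.4 in WT sham, and higher regions had a median of 23.0 in MUT DMM against 8.61 in WT sham. Both MUT DMM libraries had 0 reads at 38 of the 113 lower regions (33.6%, against 37.6% in the table). The shallower of them had 0 reads at 84.

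The groups did not overlap at 142 of the 169 regions (84%, against 82.1% in the table): 40 of 56 higher (75.2% in the table) and 102 of 113 lower (87.5% in the table). limma called 78 regions lower (46.2%, against 39% of the table) and 8 higher (4.73%, against 6.38% of the table) after adjustment. All 38 regions with 0 reads in MUT DMM were among the 78; their WT sham means had a median of 6.07 normalized counts, and their fitted difference depends on the added 1. Scaling moved this comparison: over regions read in every library, the MUT DMM libraries lay 0.46 higher on the log2 scale than WT sham. With the libraries centred on that median, 53 regions were higher and 116 lower, and the whole table had 40.9% higher and 59.1% lower. limma then called 4 higher (2.37%, against 4.06% of the table) and 91 lower (53.8%, against 44.6% of the table). Taking genes from coordinates within 5 kb left 37 regions higher and 88 lower (29.6% higher, against 37.7% of the called regions within 5 kb of any gene). At a mean level of at least 10 normalized counts 31 were higher and 38 lower (44.9% higher, against 59.5% of the table, whose majority turned). Fitted to that level alone, limma called 0 of these (23 at an unadjusted p below 0.05) and 0 of all 33801 regions at that level. The 8 higher limma calls became 36 (21.3%, against 26.8% of the table) without the first-listed MUT DMM library, and 0 or 1 without any 1 of the others.

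Ligand losses were spread over several genes. Wnt9a, a signal of the forming joint in mice, had 89.1 and 75.6 normalized counts in MUT DMM against 134, 145 and 155 in WT sham within the gene (chr11:59312381-59312960). The groups were apart at a high level (adjusted p = 1e-05 in the authors' deposited table; limma log2 difference -0.81 ± 0.29 SE, adjusted p = 0.0731). Wnt8a had 99.4 and 75.6 against 145, 145 and 143 at the region it also showed in WT DMM against WT sham. Wnt5a had 4 regions lower and 0 higher, Wnt9b 4 and 0, and Wnt5b 5 and 1. Wnt5a at chr14:28714181-28714440, outside the gene (chr14:28504543-28527448), had 0.74 and 0 in MUT DMM against 6.36, 6.95 and 8.88 in WT sham (limma adjusted p = 0.0052). Wnt5b had 0 and 0 against 7.42, 4.63 and 6.38, and Wnt9b 0 and 0 against 5.83, 3.47 and 4.72, both within the gene. Wnt2 had 3 regions higher and 0 lower. Its region beyond the gene's end (chr6:17966701-17966920) had 35.3 and 37.8 in MUT DMM against 11.7, 20.8 and 15.5 in WT sham, a 2.28-fold higher mean with the groups apart (limma adjusted p = 0.0481).

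Both co-receptors had losses alone, Lrp5 with 8 regions lower and 0 higher and Lrp6 with 6 and 0, where 56.5% of all called regions were lower. Lrp5 at chr19:3610741-3611120 had 7.36 and 9.45 normalized counts in MUT DMM against 31.8, 27.8 and 23.9 in WT sham. The mean was 3.31-fold higher in WT sham, with the groups apart (adjusted p = 3.66e-05 in the authors' deposited table; limma log2 difference -1.62 ± 0.31 SE, adjusted p = 0.0129). All 8 Lrp5 regions lay within the gene, the highest of them at 16.2 and 18.9 in MUT DMM against 33.4, 30.1 and 38.6 in WT sham (chr19:3630421-3630680; limma adjusted p = 0.0586), a region named after its values were seen. Ryk, a receptor with an inactive kinase domain, had 6 regions lower and 1 higher, Fzd7 4 and 0, and Ror2 9 and 3. Ror2 beyond the gene's end (chr13:53076841-53077220) had 0 and 0 in MUT DMM against 4.77, 25.5 and 15.3 in WT sham (adjusted p = 9.59e-06 in the authors' deposited table; limma adjusted p = 0.0114).

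The R-spondin receptors differed among themselves. Lgr5 had 5 regions higher and 1 lower, Lgr4 had 1 and 3, and Lgr6 had 1 and 5; these differences between genes were not tested. Lgr5 had 94.3 and 104 normalized counts in MUT DMM against 61.5, 32.4 and 44.1 in WT sham at chr10:115535781-115536100, a 2.15-fold higher mean with the groups apart (adjusted p = 0.00182 in the authors' deposited table; limma adjusted p = 0.0619). The higher region of Lgr4 had 107 and 75.6 against 68.4, 57.9 and 62.7 within the gene (chr2:109940781-109941160), also apart. At 75.6, the shallower MUT DMM library exceeded the nearest sham library by less than its own step of 9.45 normalized counts. A Ror1 region, named after its values were seen because limma called it, had 69.2 and 94.5 in MUT DMM against 41.9, 33.6 and 31.4 in WT sham (chr4:100302421; limma adjusted p = 0.0384).

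The smallest p of any member in this comparison was at the inhibitor Rnf43 (chr11:87672461-87672880), with 63.3 and 47.2 normalized counts in MUT DMM against 26.5, 23.2 and 21.9 in WT sham. The mean was 2.32-fold higher with the groups apart (adjusted p = 3.95e-07 in the authors' deposited table; limma log2 difference 1.17 ± 0.31 SE, adjusted p = 0.0337). Sfrp1 was lower outside the gene (chr8:23383741-23383940), with 0.74 and 0 against 9.01, 20.8 and 16.1 (limma adjusted p = 0.00487). Wif1 was lower beyond its end (chr10:121139621-121139820), with 8.1 and 9.45 against 25.5, 32.4 and 16.4 (limma adjusted p = 0.0431). The groups were apart at both. Frzb, named after its values were seen, had 3 regions higher and 0 lower. At the region around 1 kb before its start (chr2:80448301-80448520) it had 53.0 and 56.7 in MUT DMM against 24.4, 31.3 and 35.2 in WT sham (adjusted p = 0.000463 in the authors' deposited table; limma adjusted p = 0.0784).

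Several loci were listed in more than 1 table, and these values share libraries. At the Rspo2 locus WT DMM was above WT sham and MUT DMM was below WT DMM, with the values given above. The same order held at the upstream Ror2 locus near position 53294801, at Rspo3 near 29557341 and beyond Wif1 near 121139381, where MUT DMM had 3.51 and 7.11 normalized counts against 0, 17.3 and 34.7 in WT DMM. At the Wif1 locus the MUT DMM libraries were also below WT sham, as given above. The order was reversed at the start of Fzd1, where WT DMM was lower than WT sham. There MUT DMM had a mean of 28.8 against 13.2 in WT DMM at chr5:4757921-4758140, a region chosen after its values were seen. It was likewise reversed inside Wnt5b (chr6:119543821-119544200), with a mean of 44.2 in MUT DMM against 25.3 in WT DMM (adjusted p = 0.0215 in the authors' deposited table). At Rnf43, WT DMM and MUT DMM were each above WT sham, and inside Lgr5 (near 115535781) and Lgr4 (near 109940781) MUT DMM was above both wild-type groups, by the means. Since 1 set of WT DMM libraries enters a gain against sham and a loss in the mutant, the opposite signs are not separate evidence.

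**Figure D5:**
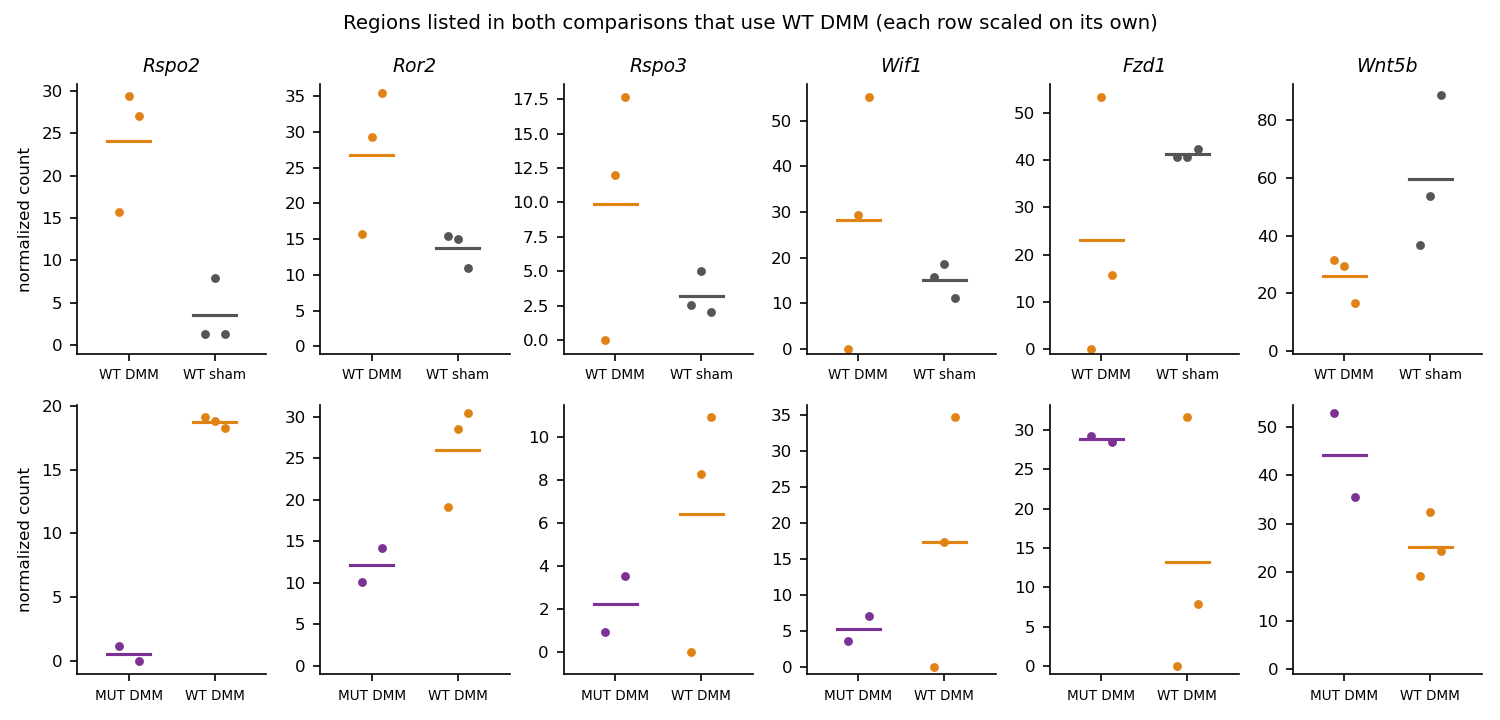
Normalized counts per library (dots) and group means (ticks) at loci of Rspo2, Ror2, Rspo3, Wif1, Fzd1 and Wnt5b; the top row shows WT DMM and WT sham, the bottom row MUT DMM and WT DMM, each with its own scaling. WT DMM is the higher group of both rows at Rspo2, Ror2, Rspo3 and Wif1 and the lower group of both at Fzd1 and Wnt5b, by the means.

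In a list of 57 other Wnt pathway genes (secretion, cell-surface modulators, destruction complex, nuclear factors and planar polarity), 35 genes had a called region in the comparison of WT DMM with WT sham, 49 in that of MUT DMM with WT DMM and 46 in that of MUT DMM with WT sham. WT DMM against WT sham had 91 regions higher and 14 lower (86.7% higher, against 93.4% in the table). MUT DMM against WT DMM had 80 higher and 137 lower (36.9% higher, against 34.6% in the table). MUT DMM against WT sham had 88 higher and 165 lower (34.8% higher, against 43.5% in the table). Nuclear factors such as Tcf7l2 and Lef1 were counted in a sublist that had 27 higher and 6 lower, 22 and 52, and 23 and 61, in the same order of comparisons. The planar polarity sublist had 28 and 2, 21 and 34, and 20 and 40. 5hmC regions near 15 cartilage marker genes were called at 7, 11 and 12 genes in that order, with 17 higher and 2 lower, 13 and 22, and 18 and 22. Regions near endothelial marker genes numbered 13 higher and 3 lower, 6 and 20, and 5 and 23, those of blood 5 and 0, 1 and 5, and 5 and 6, and those of fat 3 and 0, 0 and 5, and 3 and 2. Bone markers had 2 and 0, 2 and 0, and 2 and 2, and muscle markers 3 and 2, 6 and 4, and 5 and 3. The sublist and marker counts stand beside the same higher shares of all called regions, 93.4%, 34.6% and 43.5% in that order. The part of other cell types in the results was not tested. The maps hold no RNA level, so the tissue label could not be checked by expression. Longer members had more called regions, with a Spearman rho of 0.49, 0.46 and 0.60 across 53 genes, as a description of genes within these libraries.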

How the data were processed

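Per the labels' protocols, DNA of knee cartilage was profiled by reduced representation hydroxymethylation profiling with 15 PCR cycles. The submitters' processing notes name the build mm10 and the tools HISAT2 2.1.0, Trim Galore 0.5.0, bcl2fastq 2.20.0, bedtools and SAMtools. The method of calling regions and scaling libraries was not given in the sources used here. As results, the authors deposited 3 region tables. Each holds 3 normalized counts a group joined in 1 cell, the group means (a scaled read coverage, or signal), and, per the file headers, p-values and adjusted p-values. The deposited log2 fold changes and fold ratios were not used.

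Members were taken by the tables' nearest gene. The members and lists were chosen with earlier results of these data known. Values were whole multiples of 1 step within 0.02 normalized counts, which gave the reads per library. A call is the authors' adjusted p below 0.05 in the deposited tables, with the direction from the means of distinct libraries. limma 3.58.1 (R 4.3.3) was fitted on log2(normalized count + 1) over each whole table with Benjamini-Hochberg adjustment, and was tested on simulated data. No count model was run, since the cells are joined and normalized. Named regions are, per comparison and class, those of the 4 genes with most called regions, the smallest p in each direction, those over start windows and up to 10 whose groups do not overlap, plus up to 10 loci listed in several tables; others are said to be chosen after their values were seen. Libraries are called by their place in the cell, since the columns carry no replicate number. The design text calls the replicates biological without tying them to animals, so p-values cover only the spread among libraries. Reads carry no molecular identifiers. Alternatives were other thresholds, genes taken from coordinates within 5 kb, a level of at least 10 normalized counts, added constants of 0.5 and 4, median centring, identical entries as deposited and leaving out each library. Tools were Python 3.11.15, pandas 2.3.3, numpy 2.4.6, scipy 1.17.1 and matplotlib 3.10.9.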

Additional observations from a re-analysis of the deposited data

How the results depend on the processing

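Median-centred directions and the counts of non-overlapping groups without the first-listed WT DMM library were chosen after seeing the data. With genes taken from coordinates within 5 kb, 56 regions were higher and 14 lower in WT DMM against WT sham, 66 and 67 in MUT DMM against WT DMM, and 37 and 88 in MUT DMM against WT sham. The higher shares were 80%, 49.6% and 29.6%, against 92.7%, 35.1% and 37.7% of the called regions within 5 kb of any gene. With a mean level of at least 10 normalized counts the majority turned in the WT DMM against WT sham comparison (5 higher, 16 lower) and in that of MUT DMM with WT DMM (74 higher, 23 lower). In MUT DMM against WT sham it was 31 and 38. There limma called 0 higher and 0 lower of these (23 at an unadjusted p below 0.05), and 0 of all 33801 regions at that level, with fewer regions tested. Median centring left 4 limma calls higher there.

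Leaving out 1 library gave 67 to 86 higher and 15 to 16 lower regions in WT DMM against WT sham, 77 to 78 and 75 to 105 in MUT DMM against WT DMM, and 53 to 56 and 111 to 113 in MUT DMM against WT sham. limma called 0 to 74 higher and 0 to 1 lower in WT DMM against WT sham, with 74 and 1 only without the first-listed WT DMM library. In MUT DMM against WT sham limma called 0 to 36 higher and 52 to 81 lower: 36 higher without the first-listed MUT DMM library, 1 without the third-listed MUT DMM, first-listed sham or second-listed sham library, and 0 without the third-listed sham library. With 1 MUT DMM library left, it is assumed to vary like the other group. Without the first-listed WT DMM library, 77 rather than 2 higher regions in WT DMM against WT sham, and 84 rather than 32 lower regions in MUT DMM against WT DMM, did not overlap.

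Of 74 named regions 5 reversed when 1 library was left out; the cause was not tested. The difference of the means ran from -46.8 to 2.60 at Ror2 chr13:53231621 (WT DMM against WT sham, reversed without the first-listed WT DMM) and from -0.46 to 27.1 at Wif1 chr10:121139381 (same comparison, without the third-listed WT DMM). In MUT DMM against WT DMM it ran from -5.96 to 0.13 at Rspo3 chr10:29582141 and from -4.74 to 0.13 at Ror2 chr13:53052041 (both without the third-listed WT DMM), and from -3.13 to 0.12 at Dkk2 chr3:132099001 (without the first-listed MUT DMM). No named region reversed on median centring or with identical entries as deposited.

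No paired analysis was possible because the deposited columns carry no replicate number. Depth limits the low regions most, since 1 read of the shallow libraries is worth 3.55 to 15.7 normalized counts.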

Other observations

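Some regions called lower carried a high value in the first-listed WT sham library alone, at Sfrp5 and Ror2 in both tables that hold it. At Sfrp5, a secreted Wnt binder, the region chr19:42217101-42217340 had 0, 2.67 and 7.29 normalized counts in WT DMM against 90.3, 4.29 and 2.56 in WT sham, and the overlapping region in the other table had 52.3 and 47.2 in MUT DMM against 191, 49.8 and 38.0 in WT sham. Ror2 at chr13:53275441-53275760 had 0, 5.34 and 4.17 in WT DMM against 83.3, 4.29 and 3.42 in WT sham, and in MUT DMM against WT sham the levels there were 3.68 and 0 against 139, 6.95 and 6.38. Regions of Wif1 (chr10:121046821-121047140) with 2.21 and 0 in MUT DMM against 81.1, 5.79 and 3.88 in WT sham, Fzd3 (chr14:65237181-65237540) with 1.47 and 0 against 59.9, 5.79 and 5.55, Fzd8 (chr18:8979181-8979520) with 0.74 and 0 against 70.0, 15.1 and 4.44, and Ror1 (chr4:100095121-100095340) with 3.68 and 0 against 53.6, 3.47 and 3.61 had the same form.

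Some gains in MUT DMM against WT sham rested on the shallower MUT DMM library, at 2 to 12 reads. Dkk2 had 39.0 and 113 normalized counts in MUT DMM against 27.0, 32.4 and 33.0 in WT sham beyond the gene's end (chr3:132251141-132251780). Sfrp5 had 5.89 and 37.8 against 2.12, 6.95 and 5.27 at chr19:42224201-42224480. Wnt7a had 3.68 and 18.9 against 0.53, 3.47 and 1.39 at chr6:91332141-91332420.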
